A study of Mus musculus with 9 samples.

Results

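Liver RNA for the complement system was compared between obese diabetic db/db mice and lean BKS mice. Complement genes were chosen by symbol, as a list of 33 components, lectins, regulators and receptors, and 29 of them had a probe set (a group of short probes read as 1 signal) annotated to that gene alone, among 18193 genes measured this way. C3, C7 and Cfd were not analysed here, and C4b was covered only by a probe set shared with its near-identical copy C4a. In all, 51 probe sets carried the symbol of 1 listed gene alone and 3 shared it with another gene.

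The db/db group, 4 samples, came from mice of the strain BKS.Cg-Leprdb, which carry the db mutation of the leptin receptor gene in every cell. The BKS group, 5 samples, came from C57BL/KSlepr+/+ mice with the intact receptor, described as littermates. All were males of 14 weeks on standard chow, and the db/db mice had diabetes, obesity and fatty liver by then, per the study's design. Each sample was total RNA of whole liver on its own Affymetrix array. Whether the samples of a group were separate mice is not given in the labels, and p-values therefore speak only of how these samples vary, which may be technical.

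Complement is a cascade of blood proteins, most of them made by hepatocytes, that marks microbes and damaged cells and can pierce their membranes. Antibodies start it through C1q (classical pathway), sugars on microbes start it through lectins (lectin pathway), and C3 turning over in solution starts it without either (alternative pathway). All routes cut C3 and then C5, and the terminal pathway assembles C5b, C6, C7, C8 and C9 into a pore, the membrane attack complex. In liver, the C1q chains come mainly from macrophages rather than hepatocytes. Blood of male mice is known to have more terminal pathway activity than blood of females.

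Arrays correlated with each other at 0.919 to 0.967 over all genes, and their median signals lay between 67.2 and 110.7. A technical property split them: the signal of a control probe set for 18S ribosomal RNA was 1872.7 to 19770.7 on db/db 3, db/db 4, BKS 4 and BKS 5 (high 18S arrays) and 22.2 to 43.5 on the remaining 5 (low 18S arrays). Each of these sets had db/db and BKS livers, and the comparison was repeated within each. The hepatocyte markers Alb and Ttr did not pass the test between groups: Alb, albumin, stood at 15.50 ± 0.13 in db/db and 15.47 ± 0.06 in BKS livers on the normalized log2 scale (SD, n = 4 and 5), and none of 6 measured hepatocyte markers passed. At an unadjusted p under 0.05 (limma) were 3 of the 6, and 17.6% of all genes. These 3 were Apoa1 at a log2 difference of -0.38 (adjusted p = 0.178, groups not overlapping), Hnf4a at -0.35 (adjusted p = 0.121) and Tat at 0.43 (adjusted p = 0.125). In whole tissue, fewer cells of a type and less RNA per cell cannot be told apart.

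Of the 29 measured complement genes 9 fell in db/db livers, 6 of them of the terminal pathway, 20 did not pass and none rose (limma over all genes, Benjamini-Hochberg adjusted p under 0.05, and 15 of 29 at an unadjusted p under 0.05, where 17.6% of all genes were). The share that fell was 31.0%, and over all 18193 genes 2.61% fell and 2.88% rose, 5.49% in either direction. The median log2 difference, db/db minus BKS, was -0.29 over the 29 genes and -0.00 over all genes, and 23 of the 29 were below 0. Those that fell were Hc, C6, C8a, C8b, C8g and C9 of the terminal pathway and C1ra, C1s1 and C2 of the classical pathway. On the normalized scale every db/db array lay on the same side of every BKS array in 15 of the 29 genes (51.7%), against 9.12% of all genes. In 14 of them it lay below, against 4.41% of all genes. Among the 15, the deposited signals of C8g, Masp1, Mbl2, Cfi, Clu and Serping1 overlapped between groups. With each array centred on its median in place of quantile normalization, 4 of the 29 fell (C6, C8a, C8b and C2). In that setting 212 of all 18193 genes fell.

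**Figure D1:**
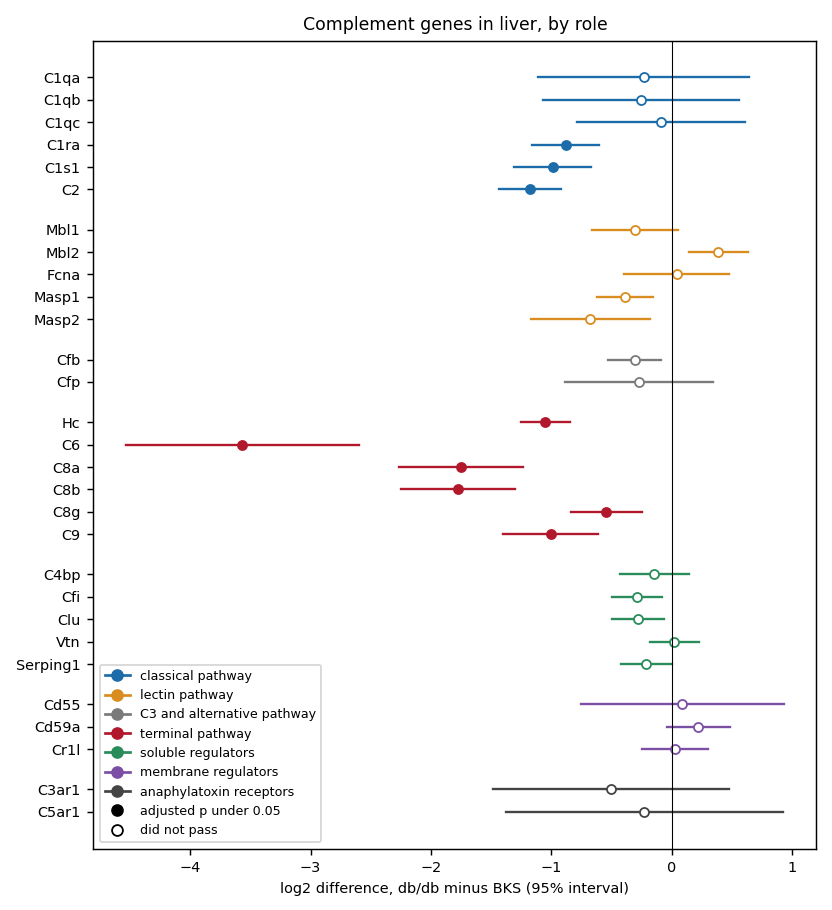
Log2 difference of normalized signal, db/db minus BKS, for 29 complement genes ordered by role, with 95% intervals from limma. Filled points passed at an adjusted p under 0.05 and open points did not. All 6 measured terminal pathway genes and C1ra, C1s1 and C2 lie below 0 with filled points, and C6 lies furthest, at -3.57.

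All 6 measured genes of the terminal pathway fell, with a median log2 difference of -1.40. C6, which binds C5b as the first step of pore assembly, had the largest fall. Its deposited signal was 1500.1, 1533.2, 180.9 and 854.3 on the 4 db/db arrays, against 8445.7, 7058.0, 10067.2, 12123.5 and 10708.1 on the 5 BKS arrays. All db/db arrays lay far below all BKS arrays, with db/db 3 lowest. On the normalized log2 scale C6 averaged 9.66 ± 1.34 in db/db and 13.22 ± 0.21 in BKS livers (SD, n = 4 and 5), a difference of -3.57 (SE 0.45, adjusted p = 3.80e-04) or an 11.9-fold lower level. Without db/db 3 the difference was -2.89, and it was significant with each of the 9 arrays left out in turn.

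C8 is built from α, β and γ chains, the products of C8a, C8b and C8g, and the genes for the α and β chains fell more than the gene for the γ chain. C8a read 10698.1, 8844.2, 4261.1 and 12175.0 in db/db livers, against 32577.1, 21697.7, 25007.6, 36851.6 and 32802.6 in BKS livers. The lowest BKS array was well above the highest db/db array, and db/db 3 was again lowest. The log2 difference of C8a was -1.75 (SE 0.24, adjusted p = 6.98e-04), a 3.36-fold lower level in db/db. C8b read 5251.6, 5188.2, 2141.8 and 3466.7 in db/db livers, against 11779.2, 10741.2, 11451.5, 16568.0 and 15638.4 in BKS livers, again without overlap. Its log2 difference was -1.78 (SE 0.22, adjusted p = 3.29e-04), 3.43-fold lower in db/db.

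C8g, which encodes a small protein of the lipocalin family unlike the pore-forming chains, read 16977.3, 16219.9, 19970.6 and 13701.3 in db/db livers, against 24896.7, 19864.2, 18992.8, 33840.1 and 33274.0 in BKS livers. The deposited signals overlapped, and the normalized ones did not, by a narrow margin of 0.16 on the log2 scale. Its log2 difference was -0.54 (SE 0.14, adjusted p = 0.0338), and the call was lost in 6 of 9 fits with 1 array left out (adjusted p up to 0.0837). Within each array, C8b minus C8g averaged -2.15 ± 0.55 in db/db and -0.92 ± 0.11 in BKS livers on the log2 scale (SD, n = 4 and 5), and C8a minus C8g averaged -0.99 ± 0.78 in db/db and 0.21 ± 0.20 in BKS livers. In both contrasts the db/db arrays lay below all BKS arrays. These are 2 of 4 pairs picked after their values were seen, so they are given as a description, with no test.

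Hc encodes C5, whose fragments attract leukocytes and seed the pore. It read 12825.2, 10749.1, 13770.0 and 14090.8 in db/db livers, against 29237.5, 20956.1, 23460.5, 31941.7 and 30854.5 in BKS livers. The db/db arrays were close together and all below the BKS arrays, and Hc averaged 13.64 ± 0.10 in db/db and 14.69 ± 0.08 in BKS livers on the log2 scale (SD, n = 4 and 5). It had the smallest adjusted p of the 29 genes (log2 difference -1.05, SE 0.09, adjusted p = 2.60e-05, 2.07-fold lower in db/db). C9, copies of which form the wall of the pore, read 18212.7, 16967.2, 11360.9 and 20017.3 in db/db livers, against 35519.6, 26230.9, 28103.5, 48921.4 and 40907.8 in BKS livers. Again no db/db array reached the lowest BKS array, and the log2 difference was -1.01 (SE 0.18, adjusted p = 0.00533, 2.01-fold lower in db/db).

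Among db/db livers the spread of C6, C8a, C8b and C9, which were lowest on db/db 3, was smaller once that array was left out. The spread of Hc and C8g was not smaller, and the SD of C8g was 0.29 with and 0.35 without db/db 3. The SD on the normalized log2 scale was larger in db/db than in BKS livers for all 9 genes that fell. Over all genes it was larger in db/db livers for 46.7%. Without db/db 3 it was larger for 8 of the 9, and the share of all genes without that array was not computed. For C8a it was 0.69 in db/db livers (0.12 without db/db 3) and 0.07 in BKS livers. For C9 it was 0.50 in db/db livers (0.09 without db/db 3) and 0.05 in BKS livers. These SDs hold for the normalized scale only. Deposited signals in BKS livers ran from 21697.7 to 36851.6 for C8a and from 26230.9 to 48921.4 for C9. In db/db livers without db/db 3 they ran from 8844.2 to 12175.0 and from 16967.2 to 20017.3. SDs of deposited signals were not compared. On 5 of the 6 genes the lowest db/db value was that of db/db 3, and C8g was lowest on db/db 4. The median log2 difference of the 6 lay between -1.83 and -1.06 over 23 alternative settings, many of which change the test and not the difference. All 6 passed in 12 of those settings, 5 passed in 9, and fewer in 2: centring on the median lost Hc, C8g and C9 (adjusted p = 0.0639 for Hc, 0.444 for C8g and 0.119 for C9), and eBayes without an intensity trend lost C8g and C9 (adjusted p = 0.164 for C8g and 0.0532 for C9).

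**Figure D2:**
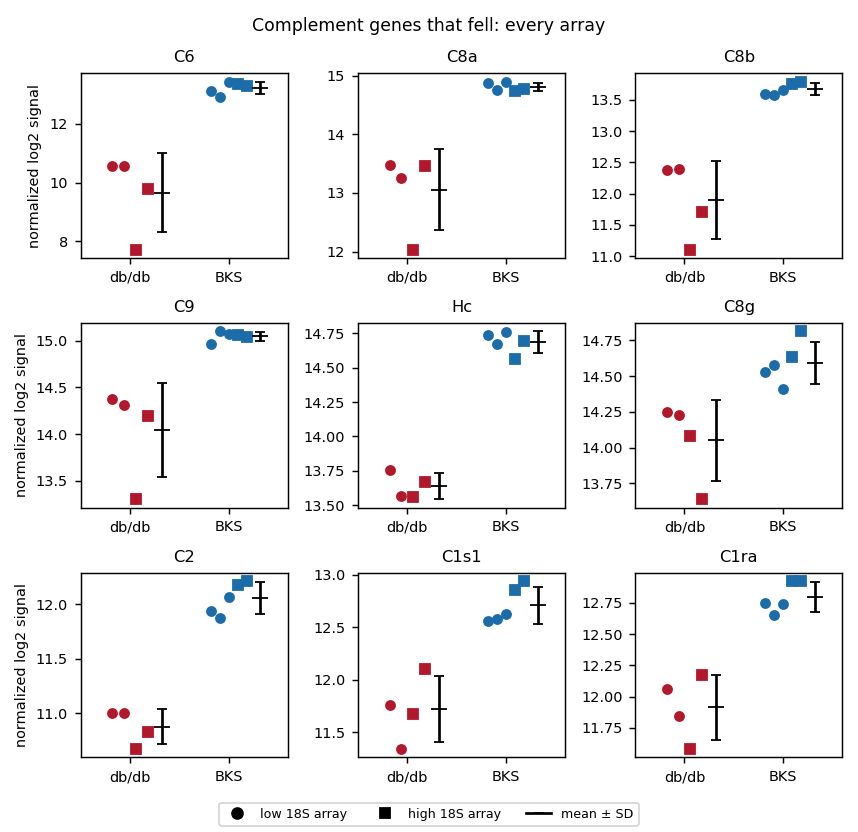
Normalized log2 signal on every array of the 9 complement genes that fell, db/db left and BKS right in each panel, with circles for arrays with low and squares for arrays with high 18S ribosomal RNA signal, and the mean ± SD in black. Axes do not start at 0 and differ between panels. No panel has overlapping groups, and db/db 3 is the lowest array in 7 of the 9.

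The terminal pathway genes lie on several chromosomes. C8b and C8a are adjacent on chromosome 4 with no protein-coding gene between them, C6 and C7 are separated by 1 protein-coding gene on chromosome 15, C7 and C9 by 6 more, and Hc and C8g both lie on chromosome 2 without being neighbours. Because these genes moved in the same direction, the promoters of the 5 with the largest falls are shown, each from 250 bases before to 50 bases after the start of the gene, from RefSeq on build GRCm38.p6, 5′ to 3′ along the strand of the gene. They are chr15:4726960-4727259 (plus strand), chr4:104876349-104876648 (minus strand), chr4:104766067-104766366 (plus strand), chr15:6445096-6445395 (plus strand) and chr2:35061363-35061662 (minus strand) in the order below. Capitals mark matches on either strand to TTCNNNGAA (a STAT motif), TTGCNNAA (C/EBP), GTTAAT (a core of the HNF1 motif) or CAAAGTCCA (HNF4).
C6: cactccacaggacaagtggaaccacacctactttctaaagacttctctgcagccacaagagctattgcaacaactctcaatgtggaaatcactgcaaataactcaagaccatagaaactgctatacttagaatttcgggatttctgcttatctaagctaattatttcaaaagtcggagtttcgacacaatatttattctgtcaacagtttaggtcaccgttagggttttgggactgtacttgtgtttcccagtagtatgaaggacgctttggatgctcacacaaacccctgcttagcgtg
C8a: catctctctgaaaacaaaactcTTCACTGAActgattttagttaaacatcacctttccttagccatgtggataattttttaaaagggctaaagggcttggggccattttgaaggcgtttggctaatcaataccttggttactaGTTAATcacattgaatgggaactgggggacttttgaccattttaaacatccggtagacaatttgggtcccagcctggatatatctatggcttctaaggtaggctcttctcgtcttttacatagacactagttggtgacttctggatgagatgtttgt
C8b: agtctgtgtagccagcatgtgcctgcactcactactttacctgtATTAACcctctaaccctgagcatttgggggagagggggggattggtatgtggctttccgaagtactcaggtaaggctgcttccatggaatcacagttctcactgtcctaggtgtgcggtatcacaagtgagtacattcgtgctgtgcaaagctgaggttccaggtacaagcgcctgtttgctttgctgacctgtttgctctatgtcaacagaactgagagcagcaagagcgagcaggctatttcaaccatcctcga
C9: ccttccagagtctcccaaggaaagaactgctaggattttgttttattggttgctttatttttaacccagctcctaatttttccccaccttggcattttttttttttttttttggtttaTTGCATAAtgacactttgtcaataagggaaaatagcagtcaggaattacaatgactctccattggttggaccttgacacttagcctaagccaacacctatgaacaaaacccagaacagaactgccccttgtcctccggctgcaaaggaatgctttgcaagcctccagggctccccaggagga
Hc: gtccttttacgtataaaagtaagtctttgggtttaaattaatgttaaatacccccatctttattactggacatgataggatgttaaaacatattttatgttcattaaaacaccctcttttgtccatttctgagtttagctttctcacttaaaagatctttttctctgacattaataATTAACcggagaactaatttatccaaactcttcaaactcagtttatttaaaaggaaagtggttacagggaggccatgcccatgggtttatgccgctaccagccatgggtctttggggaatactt
GTTAAT was found in C8a (position -107 from the start site), C8b (position -206) and Hc (position -74). C8a also held TTCNNNGAA and C9 held TTGCNNAA, while none of the 4 motifs was in the printed window of C6. Promoters were matched for 25 of the 33 listed genes, 27 promoters in all. GTTAAT was in 9 of the 27 (33.3%) and in 7.1% of all 32851 promoters of the same length, TTCNNNGAA in 5 of 27 (18.5%) and 8.3% of all, TTGCNNAA in 4 of 27 (14.8%) and 10.8% of all, and CAAAGTCCA in 0 of 27 and 0.475% of all. The 9 with GTTAAT were C1ra, C8a, C8b and Hc, which fell, C4bp, Cd55, Cfp and Vtn, which did not pass, and C7, which was not analysed. These are matches of letters only, no binding was measured, and whether the motifs bear on the falls was not tested.

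In the classical pathway the proteases fell and the recognition protein did not pass. C1ra and C1s1 encode C1r and C1s, the proteases that C1q switches on, and C2 encodes the protease of the enzyme that then cuts C3. C2 read 2081.4, 2058.8, 1578.2 and 1818.2 in db/db livers, against 3745.9, 3611.7, 4114.1, 4899.6 and 4949.9 in BKS livers. Every db/db array was below every BKS array, and the log2 difference was -1.18 (SE 0.12, adjusted p = 7.20e-05, 2.27-fold lower in db/db). The 2 further probe sets of C2 stood at -1.34 and -1.38 (adjusted p = 0.00517 and 3.68e-04 over all probe sets with 1 symbol).

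C1ra read 4268.6, 3626.6, 3037.9 and 4823.0 in db/db livers, against 6566.8, 6037.4, 6409.5, 8511.2 and 8172.1 in BKS livers, and fell 1.84-fold (log2 difference -0.88, SE 0.13, adjusted p = 0.00113). C1s1, its neighbour on chromosome 6, read 3487.6, 2607.7, 3263.0 and 4587.3 in db/db livers, against 5746.4, 5621.7, 5979.5, 8098.2 and 8230.1 in BKS livers, and fell 1.99-fold (log2 difference -0.99, SE 0.15, adjusted p = 0.00138). Neither gene had overlapping groups. Mouse has near-identical copies of both, so some of the signal may belong to C1rb or C1s2, and a probe set shared by C1rb and C1ra stood at -1.47 with overlapping groups (SE 0.54, adjusted p = 0.195 over all annotated probe sets). The calls of C1ra and C1s1 were lost when arrays were centred on the median (adjusted p = 0.110 for C1ra and 0.100 for C1s1).

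The probe set shared by C4a and C4b, which covers the component that joins C2 in the same enzyme, read 17693.8, 16691.0, 19994.2 and 21557.2 in db/db livers, against 30939.9, 22974.8, 23738.7, 35830.1 and 31619.3 in BKS livers. All db/db arrays were lower, with a log2 difference of -0.53 (SE 0.10, adjusted p = 0.00857 over all annotated probe sets, 1.44-fold lower in db/db). The signal of the 2 copies could not be separated.

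C1q, the recognition protein, is built from A, B and C chains whose genes C1qa, C1qc and C1qb are neighbours on chromosome 4, and none of the 3 passed. C1qa read 952.4, 743.0, 247.7 and 555.2 in db/db livers, against 693.1, 1558.2, 907.2, 327.8 and 393.4 in BKS livers. The groups overlapped widely, and db/db 3 was the lowest of all 9 arrays. The log2 differences were -0.23 for C1qa (95% interval -1.11 to 0.64), -0.25 for C1qb (95% interval -1.07 to 0.56) and -0.09 for C1qc, with adjusted p from 0.806 to 0.930. The 2 other probe sets of C1qb stood at -0.61 and -0.70 (adjusted p = 0.181 and 0.163). The intervals of C1qa and C1qb include a fall as large as that of C1ra (-0.88), and that of C1qc (-0.79 to 0.61) does not.

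Kupffer cells, the resident macrophages of liver, had their markers low on some of the arrays where C1q was low. The mean log2 signal of 10 Kupffer cell markers was 9.17, 9.18, 8.26 and 8.83 in db/db livers, against 9.53, 9.86, 9.82, 8.87 and 8.42 in BKS livers, so it was low on db/db 3 and on the high 18S arrays of both groups. Their summed deposited signal was 8070.1 to 13394.4 in db/db and 10059 to 20563 in BKS livers. None of the 10 markers passed (limma, 4 of 10 at an unadjusted p under 0.05, where 17.6% of all genes were). Their log2 differences ran from -1.21 to 0.04. The defining markers Clec4f and Vsig4 stood at log2 differences of -0.64 (adjusted p = 0.279) and -0.21 (adjusted p = 0.840). When the 18S set entered the fit as a block 2 of the 10 fell, where 4.14% of all genes fell. The part of these cells in the C1q values was not tested.

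**Figure D3:**
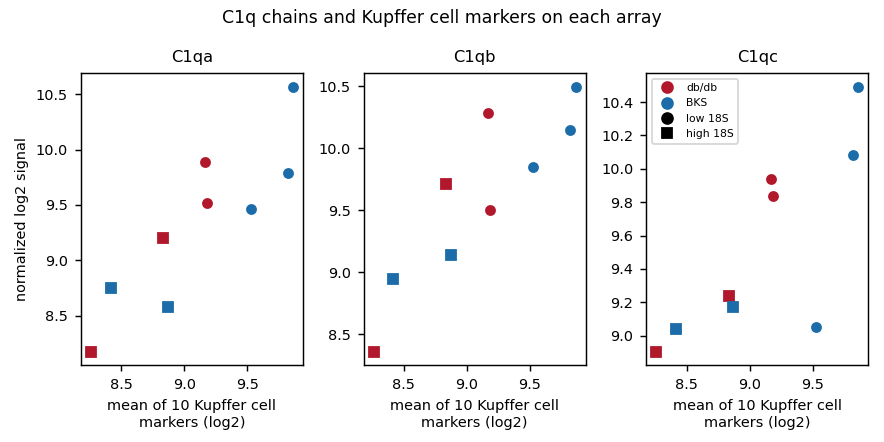
Normalized log2 signal of C1qa, C1qb and C1qc on each array (vertical) against the mean normalized log2 signal of 10 Kupffer cell markers (horizontal), with db/db in red, BKS in blue, circles for low and squares for high 18S arrays. The db/db 3 array is lowest on both axes in every panel, and the groups are mixed.

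None of the 5 lectin pathway genes passed in either direction (limma, 3 of 5 at an unadjusted p under 0.05, where 17.6% of all genes were). Mbl1 and Mbl2 encode mannose-binding lectins, and they stood on opposite sides of 0. Mbl2 read 13838.0, 15316.0, 17261.2 and 19041.7 in db/db livers, against 12718.4, 12655.2, 10345.4, 14792.4 and 12356.9 in BKS livers, and on the normalized scale its db/db arrays were all above its BKS arrays. Its log2 difference was 0.39 (SE 0.11, adjusted p = 0.0654), the highest of the 29 genes, and it was 0.40 (adjusted p = 0.0398) when the 18S set entered the fit as a block. Mbl1 stood at -0.30 (SE 0.17, adjusted p = 0.384). Mbl2 minus Mbl1 averaged 0.65 ± 0.33 in db/db and -0.04 ± 0.13 in BKS livers on the log2 scale, with no overlap (SD, n = 4 and 5). The pair was picked because its members stood on opposite sides of 0, so no test is given.

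Masp1 and Masp2 encode the proteases that travel with these lectins. Masp1 read 5066.1, 4769.2, 6821.2 and 5790.4 in db/db livers, against 7270.8, 6450.2, 6340.4, 7563.6 and 8029.2 in BKS livers. Its log2 difference was -0.39 (SE 0.11, adjusted p = 0.0525), just short of the threshold, and it was -0.40 in the blocked fit (adjusted p = 0.0202). Its 5 probe sets disagreed in sign, with log2 differences between -0.39 and 0.41. Masp2 stood at -0.68 (SE 0.23, adjusted p = 0.119) on the probe set used and at 0.03 on its other one. Fcna, a ficolin that macrophages make, stood at 0.04 (SE 0.20, adjusted p = 0.950).

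Of the alternative pathway, factor B and properdin were measured. Cfb, which encodes factor B, read 12256.3, 11538.0, 12215.5 and 12560.8 in db/db livers, against 15418.5, 13450.3, 14147.8, 17202.7 and 15071.4 in BKS livers. Every db/db array was below every BKS array, yet the difference was small and did not pass (log2 difference -0.31, SE 0.10, adjusted p = 0.113). In the fit blocked on the 18S set it stood at -0.29 (adjusted p = 0.0498). Cfb and C2 are neighbours on chromosome 17 with no protein-coding gene between them, and they encode related proteases. Within each array, C2 minus Cfb averaged -2.69 ± 0.03 in db/db and -1.81 ± 0.24 in BKS livers on the log2 scale, without overlap (SD, n = 4 and 5). This pair too was picked after its values were seen and is not tested. Cfp, which encodes properdin, stood at -0.27 (SE 0.29, adjusted p = 0.703) on the probe set used. On its other probe set it stood at 0.28 (SE 0.53, adjusted p = 0.876 over all probe sets with 1 symbol).

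None of the 5 soluble regulators passed (limma, 2 of 5 at an unadjusted p under 0.05, where 17.6% of all genes were). Their log2 differences ran from -0.29 to 0.02. Cfi, factor I, which cuts C3b and C4b, stood at -0.29 (SE 0.10, adjusted p = 0.117), and Clu, clusterin, which keeps the pore out of membranes, at -0.28 (SE 0.10, adjusted p = 0.144). Serping1, the inhibitor of C1r and C1s, stood at -0.21 (SE 0.10, adjusted p = 0.298). In these 3 genes every db/db array was below every BKS array on the normalized scale, while the deposited signals overlapped. For Serping1 the margin was very narrow, with the highest db/db array at 14.589 and the lowest BKS array at 14.5909. On the other probe sets of Clu the groups overlapped. C4bp, which binds C4b and helps factor I, stood at -0.15 (95% interval -0.43 to 0.14), and Vtn, vitronectin, at 0.02 (95% interval -0.18 to 0.23). The other probe set of Vtn stood at -0.35 (adjusted p = 0.0720).

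The 3 regulators on the cell surface did not pass either (limma, 0 of 3 at an unadjusted p under 0.05, where 17.6% of all genes were). Their log2 differences lay between 0.03 and 0.22. Cd59a encodes the protein that stops C9 from completing the pore. The probe set used read 4079.4, 4046.3, 4608.4 and 5151.8 in db/db livers, against 4276.7, 3197.0, 3277.4, 3891.7 and 4119.7 in BKS livers, with overlap (log2 difference 0.22, SE 0.12, adjusted p = 0.386). Its other probe set read 2790.9, 2326.3, 3583.5 and 2703.2 in db/db livers, against 1189.8, 1725.1, 1904.8, 1635.8 and 2062.3 in BKS livers, without overlap (log2 difference 0.73, SE 0.17, adjusted p = 0.0348 over all probe sets with 1 symbol). With the mean of both probe sets Cd59a rose by 0.47 (adjusted p = 0.0366). Cr1l, which encodes the rodent C3 regulator Crry, stood at 0.03 (SE 0.13, adjusted p = 0.942), and Cd55, decay accelerating factor, at 0.09 (SE 0.39, adjusted p = 0.942).

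The receptors for the C3a and C5a fragments gave little signal. C3ar1 stood at -0.51 (95% interval -1.49 to 0.47) and C5ar1 at -0.23 (95% interval -1.38 to 0.93). Their signal was below the median of the array on 4 of 9 arrays for C3ar1 and on 7 of 9 for C5ar1, as was that of Cd55 on 5 of 9, so these 3 genes carry little information.

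**Figure D4:**
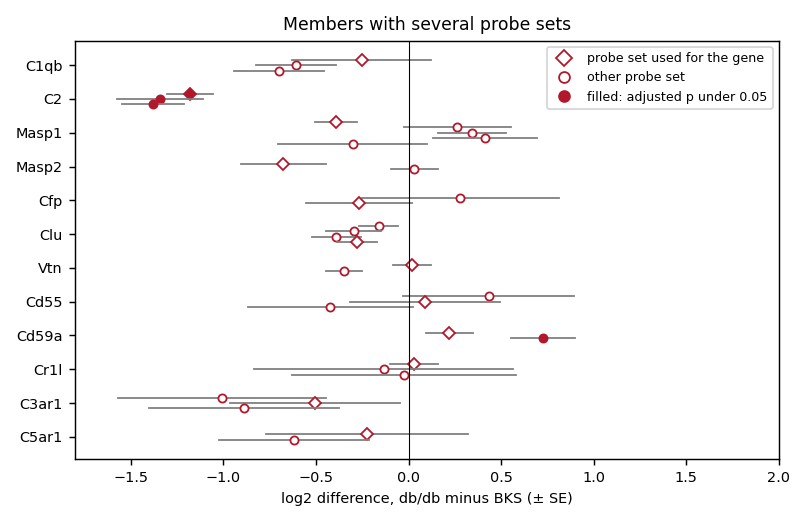
Log2 difference, db/db minus BKS, ± SE for each probe set of the 12 complement genes with several probe sets, with diamonds for the probe set used for the gene and circles for the others, filled where the adjusted p over all probe sets with 1 symbol was under 0.05. The probe sets of C2 lie together below -1, those of Masp1 lie on both sides of 0, and only the second one of Cd59a is filled among the rest.

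Within each set of arrays the 9 genes that fell kept their direction, which the absence of overlap fixes in advance. On the low 18S arrays (2 db/db and 3 BKS) the difference of group means was -2.60 for C6, -1.47 for C8a, -1.22 for C8b and -1.06 for Hc, and on the high 18S arrays (2 db/db and 2 BKS) it was -4.57 for C6, -2.01 for C8a, -2.37 for C8b and -1.02 for Hc. The difference was larger on the high 18S arrays for 7 of the 9, and db/db 3, the array with the lowest values of most of these genes, is 1 of the 2 high 18S db/db arrays. C8g stood at -0.27 on the low and -0.86 on the high 18S arrays. Blocked on the 18S set, 11 of the 29 genes fell (37.9%) and 1 rose (3.45%), where 4.14% of all genes fell and 4.1% rose, 8.24% in either direction.

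**Figure D5:**
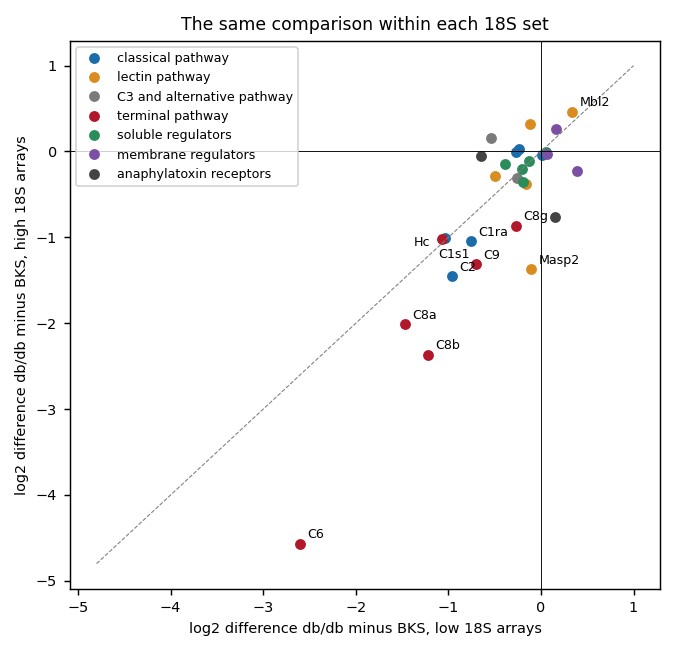
Log2 difference of group means, db/db minus BKS, of the 29 complement genes within the low 18S arrays (horizontal) and the high 18S arrays (vertical), coloured by role, with the dashed line marking equal values. The 9 genes that fell lie below 0 on both axes, C6 is at -2.60 and -4.57, and Hc and C1s1 lie close to the line.

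Of 18 measured complement genes outside the 29, 3 fell (16.7%, against 2.61% of all genes) and none rose. Their median log2 difference was -0.16. Susd4, which encodes a membrane inhibitor of complement activation, fell 4.87-fold (log2 difference -2.28, SE 0.28, adjusted p = 3.10e-04). Cpn2, a subunit of the carboxypeptidase that inactivates C3a and C5a, fell 1.35-fold (adjusted p = 0.0246) and Cfhr2, a relative of factor H, fell 1.42-fold (adjusted p = 0.0454). The groups did not overlap in any of these 3 genes.

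Of 29 measured genes listed as regulators or inducers of liver complement genes, 5 fell (17.2%) and 1 rose (3.45%), where 2.61% of all genes fell and 2.88% rose. Il1r1, the receptor for interleukin 1, which induces complement genes in the acute phase response, averaged 8.29 ± 0.11 in db/db and 10.45 ± 0.53 in BKS livers on the log2 scale (SD, n = 4 and 5, log2 difference -2.16, adjusted p = 1.41e-04). Socs3, which interleukin 6 induces and which dampens its signal, fell by 2.11 on the log2 scale (adjusted p = 0.00511), and Ghr, the growth hormone receptor, fell by 0.66 (adjusted p = 0.00476). Nr1h4, the bile acid receptor FXR, rose by 0.70 (adjusted p = 0.0168). Socs2, which growth hormone induces, fell by 2.67 (adjusted p = 0.00322). Hnf4a, a transcription factor that defines hepatocytes, stood at -0.35 (adjusted p = 0.121).

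Other acute phase genes, which share inducers with complement, gave 5 falls (20.8%, against 2.61% of all genes) and no rise among 24 measured. Their median log2 difference was -0.29. The serum amyloid genes Saa4 (log2 difference -1.47, adjusted p = 7.58e-06), Saa3 (-1.12, adjusted p = 0.00558), Saa1 (-2.50, adjusted p = 0.0123) and Saa2 (-2.41, adjusted p = 0.0262) were among those that fell. Whether the changes in these genes bear on the complement genes was not tested.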

How the data were processed

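The authors deposited a linear intensity for every probe set on each of 9 arrays, which took 8 µg of total RNA per sample, per the labels. Trimmed means (2% off each end) of the deposited table lay between 500.003 and 500.005 on all arrays, so it had been scaled. The sources used here name no software and no background correction, and the table has no detection calls. The number of arrays limits the precision.

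Without the 64 controls, 45037 probe sets were transformed as log2(intensity + 16), which understates folds of dim genes. Array medians spanned 0.607, above the limit of 0.25, so quantile normalization was applied (limma 3.58.1, R 4.3.3). Of the probe sets 34945 had 1 gene symbol, 932 several and 9160 none in the annotation used. The probe set of highest mean stood for each gene. All 29 complement genes matched the RefSeq gene table by gene identifier with the same symbol.

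Probe sets shared by several genes were fitted with all annotated probe sets, a choice made after values were seen. All 18193 genes were fitted with lmFit and eBayes (intensity trend, group as the only term, two-sided), with Benjamini-Hochberg adjustment and a threshold of 0.05. Members, roles, lists and motifs were chosen with earlier results of these data known. Every measured member is named, and of each other list up to 4 genes per direction that passed, by smallest adjusted p, plus defining markers. Lists were complement genes outside the members, regulators, acute phase genes and markers of hepatocytes, Kupffer cells, monocytes and dendritic cells, neutrophils, lymphocytes, endothelium, stellate cells and fibroblasts, cholangiocytes, adipocytes, mesothelium and red blood cells. On simulated data for this comparison over 18193 genes the fit recovered 17% of 1.5-fold, 53.7% of 2-fold and 92.1% of 4-fold changes. Of its calls 4.75% were false. The changed genes were drawn only from the brighter genes, and the noise was independent between arrays, so recovery for dim genes was not measured.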

Additional observations from a re-analysis of the deposited data

Results flagged for a closer look

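Of 58 groups examined (29 complement genes in each genotype), 3 held an array far from the rest of its group, and chance alone flags about 1 in 20 such groups. In db/db livers C8a stood at 12.03 on db/db 3, below the next lowest array at 13.26 and the highest at 13.48 (normalized log2 scale). Without that array the log2 difference of C8a was -1.39, against -1.75 with it. In db/db livers Fcna stood at 9.69 on db/db 2, above the next array at 9.37. In BKS livers C5ar1 stood at 4.45 on BKS 3, below the next array at 6.14, where the deposited signal was 5.6.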

How the results depend on the processing

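The 998 genes called over the whole table became 535 with centring on the median, 632 with the probe set of largest variance, 467 without the intensity trend, 1500 with the 18S split as a block, 434 on the low and 465 on the high 18S arrays alone, and 593 to 926 with 1 array left out, the lowest without db/db 3. Of the 29 complement genes 9 were called, and 4 with centring on the median. When only the brighter genes were tested, which left 26 of them, 14 were called (13 lower and 1 higher). In that setting calls were also more frequent over all genes, at 1219 of 9097 (612 lower and 607 higher). With 1 array left out 8 or 9 complement genes were called. With the replicate number as a block 1136 genes and 8 complement genes were called. Deviations of equal numbers from their group means correlated at 0.03, 0.17, -0.07 and 0.13, so the numbers were not taken as pairs. Over the members' single values, 633 kept their side of the threshold, 16 lost a call, most often C8g, and 15 gained one. C6 stood at -2.47 on the low 18S arrays fitted alone and -4.83 on the high ones. The cause of these shifts was not tested.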

Other observations

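Markers of other cell types showed few calls. Over all genes 2.61% fell and 2.88% rose, and 17.6% were at an unadjusted p under 0.05 (limma). None of 5 neutrophil, 7 lymphocyte, 8 endothelial, 10 stellate cell and fibroblast, 5 cholangiocyte or 5 mesothelial markers passed (limma, with 0, 0, 3, 3, 2 and 0 at an unadjusted p under 0.05), 1 of 10 monocyte and dendritic cell markers fell (Cd9), and 1 of 3 red blood cell markers fell (Alas2). Of 8 adipocyte markers 3 rose: Pparg (log2 difference 1.46, adjusted p = 0.00441), Fabp4 (1.36, adjusted p = 0.0249) and Plin4 (1.59, adjusted p = 0.0266). Adipoq, the defining fat cell hormone, averaged 5.14 ± 1.08 in db/db and 5.11 ± 0.89 in BKS livers on the normalized log2 scale (SD, n = 4 and 5), and Lep stood at -0.54 (adjusted p = 0.445).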
